A study of Rattus norvegicus with 15 samples.

Results

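Msx1, Msx2, Pax9, Barx1 and Pitx1, transcription factors of the dental mesenchyme, were examined in molar germs of the rat. The genes were chosen by name, as a set of patterning factors, and 4 of the 5 had a row that could be matched by symbol among the 14185 genes of the table: Msx1 (ENSMUSG00000048450), Msx2 (ENSMUSG00000021469), Pax9 (ENSMUSG00000001497) and Barx1 (ENSMUSG00000021381), all under mouse Ensembl identifiers. No row could be matched to Pitx1, a homeobox gene of the jaw, and it was not analysed here. All 4 matched genes passed the filter on low counts in every comparison. The samples were molar tooth germs of wild type DA/HanRj rat embryos at 3 ages, named E15 (E15.5 in the labels), E17 (E17.5) and E18, and each age is represented by 5 libraries made from the germ of 1 tooth each. No group was treated. E15 stands for the bud and E17 for the cap stage. The titles of all libraries carry the tooth code M1, and the E18 germs are labelled as lower first molars. A single embryo gave both E17 replicate 1 (left tooth) and E17 replicate 2 (right tooth), and all other germs came from separate embryos of their stage. Title codes differ between stages and each stage has a single code, so the stage and whatever else follows these codes cannot be told apart.

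A tooth forms from an epithelium that grows into a mesenchyme derived from the neural crest, and both tissues exchange signals of the BMP, FGF, Wnt and Hedgehog families. Msx1 and Msx2 are homeobox genes switched on by BMP signals, Pax9 is a paired box gene switched on by FGF signals, and Barx1 is a homeobox gene that marks the proximal jaw, where molars form. In the mouse, loss of Msx1 or Pax9 arrests the tooth at the bud, and the study therefore counts both as genes needed for progression, whereas it counts Msx2 and Barx1 as genes needed for shape. Msx2 is also active in dental epithelium and in the enamel knot, the signalling centre that forms in the epithelium at the cap stage.

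Libraries held 10993502 to 27571541 counts. Across 12832 genes, the log2 CPM values of a library correlated with those of the same stage at a mean r of 0.951 to 0.985, with the exception of E18 replicate 3 (0.882). No 2 libraries lay within counting noise of each other, since chi-square per gene was 6.29 or more in all 30 pairs of the same stage. Pairs with E15 replicate 3 had 44.2 to 67.2, and pairs with E18 replicate 3 had 109 to 163. All other pairs had 23.9 or less, so that both libraries stood apart from their stage. The labelled tissue was checked against marker genes. Of 17 mesenchyme markers 15 had a row, of 17 epithelium markers 13 and of 8 enamel knot markers 8, and no marker was at 0 in every library. Marker lists for muscle, cartilage and for blood and vessels could not be matched to rows. The summed level of the epithelium markers was 6658 to 11105 normalized counts (median 8574) at E15, 15583 to 18795 (median 17614) at E17 and 19107 to 25807 (median 23621) at E18. The summed enamel knot markers went from 557 to 792 at E15 through 1422 to 1794 at E17 to 1957 to 2824 at E18, and the mesenchyme markers from 106573 to 189584 through 173355 to 307968 to 230241 to 314735. Col1a1 made up 77.9% of the mesenchyme sum, and the mean log2 level of the same 15 markers was 11.60 to 11.76 at E15, 11.54 to 11.70 at E17 and 11.36 to 11.59 at E18. The part of these levels in the members' changes was not tested. In whole germs, fewer cells of a type and less RNA per cell cannot be told apart.

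Between E15 and E18 the 2 Msx paralogs changed in opposite directions. Msx1 was called lower from E15 to E17 and Msx2 higher from E17 to E18, and both were called from E15 to E18. For neither gene were the 2 steps shown to differ. Pax9 was lower and Barx1 about level in the mean of E18 against E15, but neither passed the test in any comparison. The tests were made with the quasi-likelihood test of edgeR over all genes, with a threshold of 0.05 on the Benjamini-Hochberg adjusted p-value. Levels are counts divided by the size factor of the library (normalized counts), with means ± SD over 5 libraries. They are not divided by gene length, so that levels are compared between stages but not between genes.

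The promoters of the Msx genes are shown because these were the 2 members with a called change. The sequences are the 250 bases before the start of each gene in RefSeq, build GRCr8, at chr14:77185552-77185801 for Msx1 and chr17:11102034-11102283 for Msx2, on the plus strand. Capitals mark CCAAT and its complement ATTGG.
Msx1: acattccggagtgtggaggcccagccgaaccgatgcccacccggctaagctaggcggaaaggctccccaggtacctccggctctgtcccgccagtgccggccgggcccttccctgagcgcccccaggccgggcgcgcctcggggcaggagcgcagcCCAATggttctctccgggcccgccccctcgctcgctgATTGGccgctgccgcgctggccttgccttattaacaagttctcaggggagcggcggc
Msx2: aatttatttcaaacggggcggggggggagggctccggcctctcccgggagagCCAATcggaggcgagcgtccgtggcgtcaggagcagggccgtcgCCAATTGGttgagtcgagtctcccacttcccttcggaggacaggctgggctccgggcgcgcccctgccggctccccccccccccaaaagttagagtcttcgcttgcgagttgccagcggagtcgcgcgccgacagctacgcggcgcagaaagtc
Msx1 has 2 matches, 94 and 57 bases before the start, and Msx2 has 3, at 198, 154 and 151 bases, of which the last pair overlaps on opposite strands. Of 27457 RefSeq promoters of the same length, 34.3% hold CCAAT on either strand. The GC box GGGCGG was found once in each promoter, at 75 bases in Msx1 and 235 bases in Msx2, and in 32.4% of all. TATAAA (13.1% of all), the homeodomain core TAATTG (7.38%), and the SMAD motifs CAGAC (42.8%) and GGCGCC (9.24%) had no match in either window. GC content was 71.2% for Msx1 and 67.6% for Msx2, against a median of 52.0% over all promoters. The RefSeq promoter table was matched for Msx1, Msx2 and Pax9, and not for Barx1 and Pitx1.

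Msx1, the homeobox gene that maintains Bmp4 in dental mesenchyme, had 4951, 4429, 3801, 4799 and 5650 normalized counts in the E15 libraries. At E17 the values were 2961, 4192, 3440, 3437 and 3497. At E18 they were 2725, 2655, 3609, 3227 and 3723. All E18 germs were thus below all E15 germs, and 4 of the 5 E17 germs were below all E15 germs, with E17 replicate 2 as the exception, whereas E17 and E18 overlapped. Mean levels were 4726 ± 681 at E15, 3505 ± 440 at E17 and 3188 ± 491 at E18. From E15 to E17 Msx1 fell by 0.42 on the log2 scale (SE 0.11), to 0.747 of the E15 level, with an edgeR adjusted p = 0.0136. From E15 to E18 it fell by 0.56 (SE 0.13; edgeR adjusted p = 0.0112). The difference between E18 and E17 was -0.14 ± 0.12 (edgeR adjusted p = 0.604), with a 95% interval of -0.40 to 0.13.

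**Figure D1:**
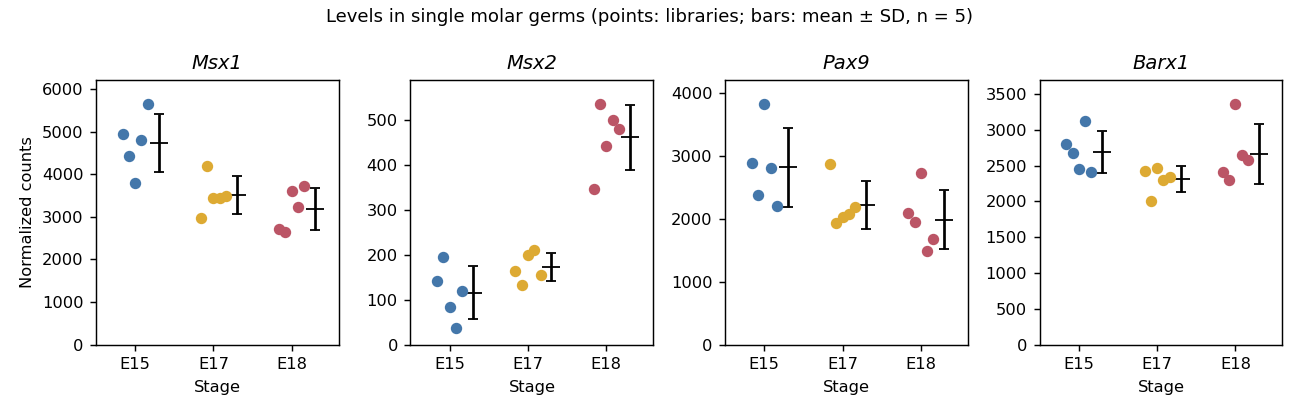
Normalized counts (y axis, from 0) of Msx1, Msx2, Pax9 and Barx1 in each of the 15 libraries by stage (x axis), with the mean and SD of 5 libraries beside the points. All E18 points of Msx1 lie below its E15 points and all E18 points of Msx2 above its E15 and E17 points, while the stages of Pax9 and Barx1 overlap.

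Msx2, the paralog needed for normal tooth shape, had 141, 196, 84.6, 38.3 and 120 normalized counts in the E15 libraries. At E17 it had 165, 134, 200, 210 and 156, and at E18 348, 537, 444, 501 and 481. The E15 germs spread 5.13-fold from the lowest to the highest, and the E18 germs lay above every E15 and every E17 germ. The lowest E15 value rests on 37 counts, with a 95% Poisson interval of 27.0 to 52.8 normalized counts that covers counting error only and stays below the other E15 values. Means were 116 ± 59.5 at E15, 173 ± 31.9 at E17 and 462 ± 72.3 at E18. From E17 to E18 Msx2 rose by 1.41 ± 0.16 (log2 ± SE), or 2.66-fold, with an edgeR adjusted p = 0.00144. Against E15 the E18 level was 3.98-fold higher, with a 95% interval of 2.39-fold to 6.63-fold (edgeR adjusted p = 0.00146). The difference between E17 and E15, 0.58 ± 0.31, did not pass (edgeR adjusted p = 0.224), and its 95% interval reached from -0.09 to 1.26.

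Pax9, the paired box gene whose loss stops molars at the bud, had 2883, 2375, 3828, 2801 and 2202 normalized counts at E15. At E17 it had 2879, 1933, 2034, 2085 and 2191, and at E18 2096, 1946, 2721, 1495 and 1682. The stages overlapped throughout, and 4 of the 5 E18 germs were below all E15 germs. The exception was E18 replicate 3, a library that stood apart. Means were 2818 ± 632 at E15, 2224 ± 378 at E17 and 1988 ± 471 at E18. The log2 differences were -0.33 ± 0.14 from E15 to E17 (edgeR adjusted p = 0.129), -0.16 ± 0.16 from E17 to E18 (edgeR adjusted p = 0.648) and -0.49 ± 0.18 from E15 to E18 (edgeR adjusted p = 0.0821). The last comparison depended on the libraries and the fit. It passed without E18 replicate 3 (-0.63, edgeR adjusted p = 0.00886), with DESeq2 (-0.51, adjusted p = 0.0418) and with all 15 libraries in one edgeR fit (-0.50, adjusted p = 0.0419). The first comparison passed without E17 replicate 1 (-0.44, edgeR adjusted p = 0.0430). Without E15 replicate 3, which stood apart and held the highest Pax9 level, both differences were smaller and neither passed. They were then -0.20 from E15 to E17 (edgeR adjusted p = 0.202) and -0.36 from E15 to E18 (edgeR adjusted p = 0.180).

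Barx1, the homeobox gene of the proximal jaw, varied least of the 4 members within the bud and cap stages, with a coefficient of variation of 10.7% at E15 and 7.94% at E17. It had 2796, 2676, 2451, 3117 and 2407 normalized counts at E15 and 2430, 2002, 2465, 2305 and 2341 at E17. At E18 it had 2408, 2299, 3362, 2644 and 2584, of which the highest value again belonged to replicate 3. Means were 2690 ± 288, 2309 ± 183 and 2659 ± 416, and every pair of stages overlapped. The log2 differences were -0.21 ± 0.08 from E15 to E17 (edgeR adjusted p = 0.0859), 0.20 ± 0.11 from E17 to E18 (edgeR adjusted p = 0.402) and -0.01 ± 0.12 from E15 to E18 (edgeR adjusted p = 0.973). The 95% interval of the last, -0.27 to 0.26, leaves room for a change of that size in either direction. The first difference passed without E15 replicate 3 (-0.24, edgeR adjusted p = 0.0294).

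**Figure D2:**
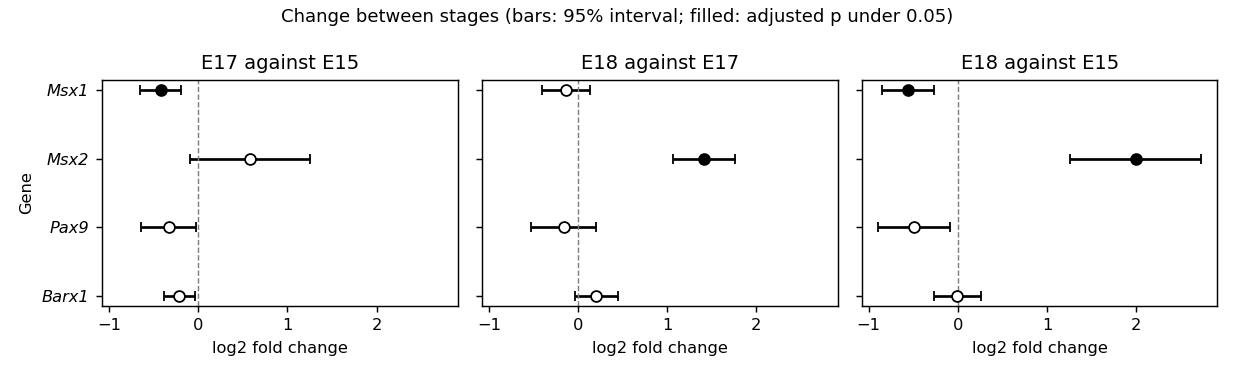
Log2 fold change (x axis) of each member in the 3 comparisons of stages, with 95% intervals from edgeR; filled points passed an adjusted p of 0.05. Msx1 lies at -0.42 and -0.56 against E15 and Msx2 at 1.41 and 1.99 in the comparisons of E18, whereas the points of Pax9 and Barx1 are open in all panels.

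Read against all genes, 1 of the 4 members was called from E15 to E17, where 18.3% of 12627 genes were called, 11.3% higher and 7.02% lower. From E17 to E18 it was also 1 of 4, where 2.54% of 12718 genes were called, 1.91% higher and 0.629% lower. From E15 to E18 it was 2 of 4, 1 in each direction, where 21.0% of 12661 genes were called, 14.2% higher and 6.73% lower. Whether the second step differed from the first was tested in one edgeR fit of all libraries. None of the 4 members was called there, against 0.551% of 12894 genes, 0.0465% with a positive and 0.504% with a negative difference (second log2 change minus first). The difference of the log2 changes was 0.83 ± 0.51 for Msx2 (edgeR adjusted p = 0.740) and 0.42 ± 0.19 for Barx1 (edgeR adjusted p = 0.534). It was 0.29 ± 0.22 for Msx1 (edgeR adjusted p = 0.831) and 0.17 ± 0.30 for Pax9 (edgeR adjusted p = 0.973). The rise of Msx2 was therefore not shown to be particular to the second step, nor the fall of Msx1 to the first. Both steps share the E17 libraries and span unequal times, from E15.5 to E17.5 and from E17.5 to E18 by the labels. The test compared whole changes, and rates per day were not tested.

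Ratios of counts between members within a library do not depend on the scaling between libraries. Their differences between stages were tested with exact two-sided permutation tests, whose smallest p with 5 against 5 libraries is 0.00794, adjusted over 18 tests of 6 pairs of genes. A ratio itself depends on the lengths of both genes, and only its change between stages is read here. The log2 ratio of Msx1 to Msx2 was 5.13, 4.49, 5.48, 6.95 and 5.55 at E15, then 4.16, 4.97, 4.10, 4.03 and 4.48 at E17, and 2.97, 2.30, 3.02, 2.69 and 2.95 at E18. The balance of both paralogs thus moved toward Msx2 at each step, with no overlap between E18 and the other stages. It changed by -1.17 from E15 to E17 (adjusted exact permutation p = 0.0317), by -1.56 from E17 to E18 (adjusted exact permutation p = 0.0179) and by -2.73 from E15 to E18 (adjusted exact permutation p = 0.0179). The first of these calls was lost with both teeth of the shared embryo joined (-1.23, adjusted exact permutation p = 0.0571) and in 8 of 10 fits without 1 library, which left out any library except E15 replicate 2 and E17 replicate 2.

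Msx2 also rose from E17 to E18 relative to Pax9, by 1.60, and to Barx1, by 1.22 (adjusted exact permutation p = 0.0179 for both). From E15 to E18 these ratios rose by 2.67 and 2.19 (adjusted exact permutation p = 0.0179 for both). From E15 to E17 the changes, 1.07 and 0.96, did not pass (adjusted exact permutation p = 0.0769 and 0.0519). Among the other members, Msx1 and Pax9 both fell relative to Barx1 from E15 to E18, by 0.55 and 0.48 on the log2 scale (adjusted exact permutation p = 0.0179 for both). The log2 ratio of Pax9 to Barx1 was 0.04, -0.17, 0.64, -0.15 and -0.13 at E15 and -0.20, -0.24, -0.30, -0.82 and -0.62 at E18. Every E18 germ was thus below every E15 germ although neither gene alone separated these stages. The nearest germs were close, at -0.17 (E15 replicate 2) and -0.20 (E18 replicate 1), and the counting error of the ratio was not computed. The same ratio differed between E17 and E18 by -0.37 (adjusted exact permutation p = 0.0429) and that of Msx1 to Barx1 by -0.34 (adjusted exact permutation p = 0.0595). The former call was lost without any 1 library other than E17 replicate 3. The ratio of Msx1 to Pax9, both genes of the bud arrest, changed by -0.10, 0.04 and -0.06 in the same order of comparisons as above, and none of these passed (adjusted exact permutation p = 0.795 to 0.825).

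**Figure D3:**
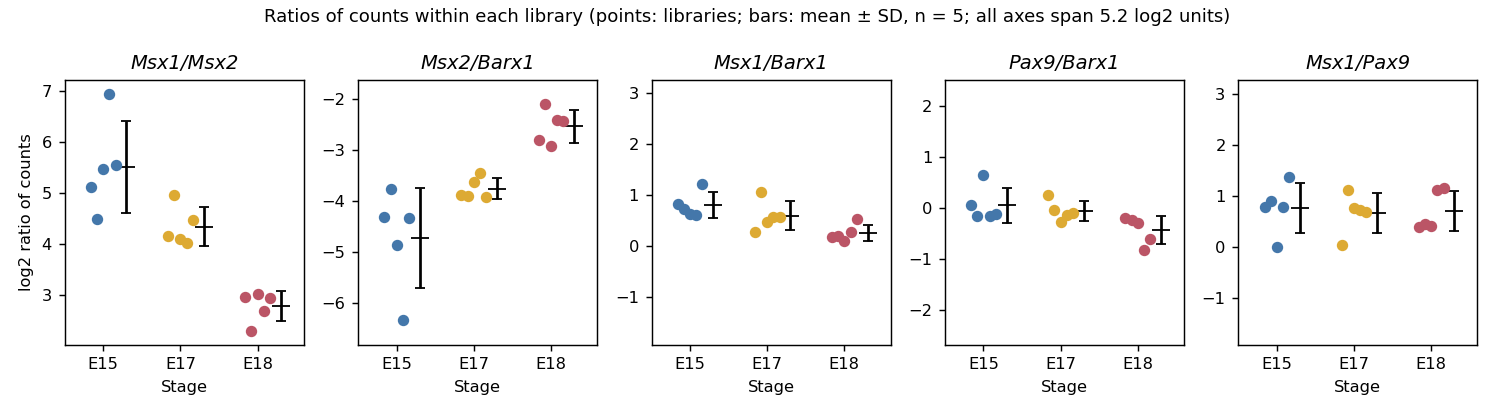
Log2 ratio of counts of 2 members within each library (y axis) by stage (x axis), with the mean and SD of 5 libraries beside the points; all panels span the same number of log2 units. The points of Msx1/Msx2 step down and those of Msx2/Barx1 step up to E18, Msx1/Barx1 and Pax9/Barx1 shift down by 0.55 and 0.48 from E15 to E18, and Msx1/Pax9 stays within its spread.

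The members were also set against the summed mesenchyme markers of the same library, of which the members are no part. On this scale Msx1 fell by 1.21 from E15 to E17 and by 1.55 from E15 to E18 (adjusted exact permutation p = 0.0190 for both, over 12 tests). Pax9 fell by 1.12 and 1.49 (adjusted exact permutation p = 0.0357 and 0.0190), and Barx1 by 1.01 and 1.00 (adjusted exact permutation p = 0.0272 and 0.0190). The calls from E15 to E17 were lost in 7 of 10 fits without 1 library for Pax9 (all except those without E15 replicates 2 or 5 or E17 replicate 1) and in 6 of 10 for Barx1 (all except those and the one without E17 replicate 5), with ranges of -1.34 to -0.90 and -1.15 to -0.89. Msx2 did not change from E15 to E17 beyond the spread (-0.04, adjusted exact permutation p = 0.992) but rose by 1.23 to E18 (adjusted exact permutation p = 0.0190). The falls depended on the markers summed. Col1a1, the collagen of connective tissue and bone and most of the sum, itself rose from E15 to E17, by 1.19 ± 0.24 (edgeR adjusted p = 0.00367). With the mean log2 level of the markers in place of the sum, Msx1 fell by 0.40 from E15 to E17 (adjusted exact permutation p = 0.0476), and neither Pax9 (-0.31) nor Barx1 (-0.19) was called. With Col1a1 and Dcn left out of the sum, a choice made after the data were seen, no fall of Msx1, Pax9 or Barx1 was called. Barx1 was then higher at E18 than at E15, by 0.49 (adjusted exact permutation p = 0.0238), and the rise of Msx2 from E17 to E18 was 1.72 (adjusted exact permutation p = 0.0238). Of the members, only the rise of Msx2 at E18 was thus called with each form of the marker sum tried. These tests counted both teeth of the shared E17 embryo as separate libraries, and joining them was not tried on this scale.

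The BMP list, fixed as the ligands, receptors, Smads and antagonists around the Msx genes, had 19 of 20 genes with a row. The shares of all genes called, for this and the later lists, were 11.3% higher and 7.02% lower from E15 to E17. These shares were 1.91% and 0.629% from E17 to E18, and 14.2% and 6.73% from E15 to E18. From E15 to E17 3 rose and 4 fell of 19, with a median log2 change of 0.01 against -0.01 over all genes. The rises were those of 2 antagonists and a ligand. Sostdc1, an epithelial BMP and Wnt inhibitor, rose by 1.32 ± 0.26 (edgeR adjusted p = 0.00328), and Bmp7 by 0.65 ± 0.08. The antagonist Fst rose by 0.45 ± 0.10. Bmp2, a ligand, fell by 0.45 (SE 0.11; edgeR adjusted p = 0.0115), and Smad4, the common effector, by 0.26 (SE 0.07). The receptor Bmpr1a and Smad5 also fell. From E17 to E18, when Msx2 rose, 1 of 19 was called, where 2.54% of all genes were called. This was Bmp2, which fell again, from 309 ± 25.1 to 183 ± 37.9 normalized counts (edgeR adjusted p = 0.0230). From E15 to E18 3 rose and 3 fell, with Sostdc1 at 1.40 ± 0.33, Bmp7 at 0.81 ± 0.14, Bmp2 at -1.20 ± 0.16 and Smad4 at -0.32 ± 0.09. Bmp4, the ligand tied to Msx1 in the mesenchyme, had 1138 ± 323, 1384 ± 163 and 1549 ± 215 normalized counts at the 3 stages, a log2 difference of 0.45 ± 0.17 from E15 to E18 that did not pass (edgeR adjusted p = 0.0879).

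The FGF list, around the inducers of Pax9 and Barx1, had 15 of 18 genes with a row. The ligands Fgf8, Fgf15 and Fgf18 could not be matched to a row, so their levels are not known here. From E15 to E17 7 rose and none fell of 14 tested, with a median of 0.54, where 18.3% of all genes were called. None of 15 was called from E17 to E18, where only 2.54% of all genes were, so few calls could come from a list of this size. From E15 to E18 5 rose and none fell, where 21.0% of all genes were called. Fgf3, a mesenchymal ligand, had 0 to 6 counts in the E15 libraries, 68 to 131 at E17 and 78 to 210 at E18, and no fold is given for it. Fgf16 also had low counts, 6 to 16 in the E15 libraries, 16 to 25 at E17 and 19 to 62 at E18. On these counts Fgf16 rose by 1.14 ± 0.31 from E15 to E17 (edgeR adjusted p = 0.0207) and by 1.80 ± 0.35 from E15 to E18. Fgf4, a ligand of the enamel knot, had 0 to 6 counts at E15 and 12 to 40 at E18, and was called higher (edgeR adjusted p = 0.00830). Fgf10, a ligand of the dental mesenchyme, rose from 474 ± 43.6 to 627 ± 45.8 normalized counts from E15 to E17 (edgeR adjusted p = 0.00305), the step at which Pax9 and Barx1 had lower means. Fgf9, an epithelial ligand, had 125 ± 45.4, 88.3 ± 23.9 and 109 ± 24.8 normalized counts and was not called.

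Another list held 8 genes known to need Msx1 or Pax9 in the mesenchyme of the mouse germ, all with a row. From E15 to E17, when Msx1 fell, 4 of them rose and none fell, with a median of 0.28 against -0.01 over all genes. These were Fgf3, the Hedgehog receptor and target Ptch1 (1.00 ± 0.11, edgeR adjusted p = 3.43e-05), Fgf10 (0.41 ± 0.08) and the cell surface proteoglycan Sdc1 (0.26 ± 0.07). From E17 to E18 Ptch1 (0.49 ± 0.10, edgeR adjusted p = 0.0226) and Sdc1 (0.38 ± 0.08) rose further. From E15 to E18 5 rose, among them the homeobox gene Dlx2 (0.72 ± 0.20) and the Wnt effector Lef1 (0.50 ± 0.15, edgeR adjusted p = 0.0327). Runx2, the transcription factor of bone and tooth mesenchyme, fell by 0.55 (SE 0.13; edgeR adjusted p = 0.0109). Of the genes called in this list, Runx2 was the only one that changed in the direction of Msx1. Ptch1, Sdc1 and Lef1 are also expressed in other cells of the germ, and which cells carried the change was not measured.

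**Figure D4:**
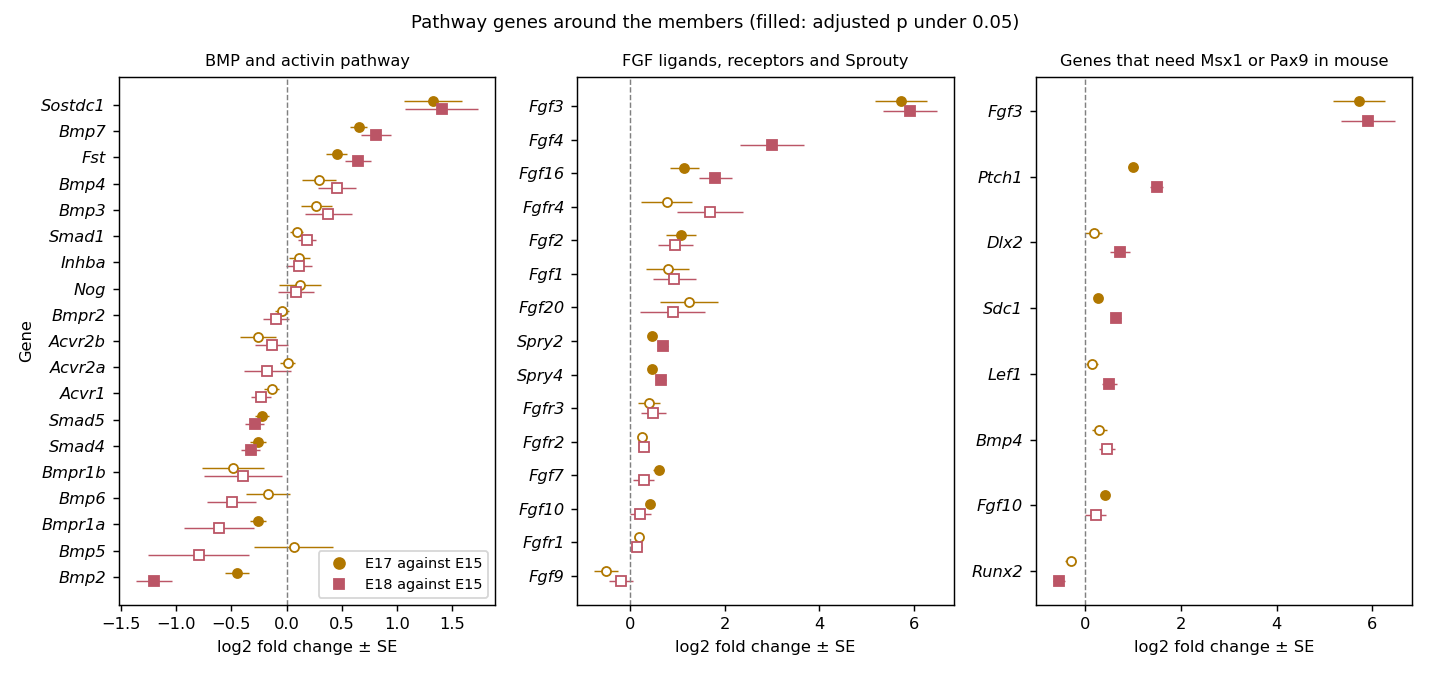
Log2 fold change ± SE (x axis) of the genes of the BMP list, the FGF list and the list of genes that need Msx1 or Pax9 in mouse (y axis), for E17 against E15 (circles) and E18 against E15 (squares), both set against the same E15 libraries; filled symbols passed an adjusted p of 0.05. Sostdc1 lies at 1.32 and 1.40 and Bmp2 at -0.45 and -1.20, and the long bars of Fgf3 and Fgf4 belong to genes with 0 to 6 counts at E15.

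Of 31 other transcription factors of the germ 23 had a row and 22 were tested. From E15 to E17 6 rose and 5 fell, from E17 to E18 7 rose and none fell, and from E15 to E18 11 rose and 5 fell. The largest rises were those of Sp6 (4.17 ± 0.14) and Foxi3 (2.06 ± 0.21), both factors of dental epithelium, from E15 to E17. At the second step Sp6 rose by 1.06 ± 0.16 (edgeR adjusted p = 0.00690), and the Iroquois gene Irx2 by 1.03 ± 0.21 (edgeR adjusted p = 0.0294). The largest falls from E15 to E17 were those of Irx3 (-0.87 ± 0.27, edgeR adjusted p = 0.0440) and of Lhx8 (-0.67 ± 0.06, edgeR adjusted p = 1.63e-05), a LIM homeobox gene of the jaw mesenchyme. Lhx8 had 4878 ± 196, 3041 ± 264 and 2509 ± 266 normalized counts, so that its E18 mean, like that of Msx1, was the lowest of the stages. From E15 to E18 Irx3 fell by 1.07 (SE 0.28) and Lhx8 by 0.95 (SE 0.09), and Sp6 and Foxi3 rose by 5.23 ± 0.23 and 2.85 ± 0.23.

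Among the mesenchyme markers, 3 rose and 6 fell of 15 both from E15 to E17 and from E15 to E18, and 0 rose and 2 fell from E17 to E18. Besides Lhx8, the falls from E15 to E17 included Frzb, a secreted Wnt antagonist (-0.79 ± 0.08, edgeR adjusted p = 3.09e-05), and Gli3, a transcription factor of the Hedgehog pathway (-0.52 ± 0.09). Frzb (-0.66 ± 0.13) and Sfrp2 (-0.53 ± 0.11), another Wnt antagonist, fell from E17 to E18. The rises at the first step were those of Col1a1, Dcn (0.92 ± 0.16) and Fgf10. The median log2 change of the list was -0.26 from E15 to E17, where Msx1, Pax9 and Barx1 had -0.42, -0.33 and -0.21, and -0.39 from E15 to E18, where they had -0.56, -0.49 and -0.01. Among the epithelium markers 12 of 13 rose and none fell from E15 to E17, with a median of 1.17, 6 of 13 rose from E17 to E18, with a median of 0.55, and 13 of 13 rose from E15 to E18. Msx2 had 0.58 and 1.41 in the first and second of these comparisons. Of the enamel knot list, 3 of 7 rose from E15 to E17 and 1 of 8, Shh, from E17 to E18 (1.35 ± 0.16, edgeR adjusted p = 0.00187). The part of these cell types in the members' changes was not tested.

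The genes with a pattern most like each member were ranked by Pearson's r of log2 CPM over the 15 libraries, among 349 genes with a symbol and a mean of at least 10 counts. The points share their stages and libraries, and the values are a description. For Msx1 these were Smad3 (r = 0.89), Irx3 (0.87) and Lhx6 (0.86), and for Msx2 Wnt6 (0.91), Hras (0.91) and Wnt3a (0.90). For Pax9 they were Tcf7l2 (0.88), Cdon (0.81) and Tle1 (0.78), and for Barx1 Dvl2 (0.79), Traf4 (0.79) and Gpc2 (0.77). With deviations from the stage means, which leave out the change between stages, the first in rank was Sdc3 for Msx1 (0.81), Ndrg1 for Msx2 (0.85), Fbln1 for Pax9 (0.91) and Dvl2 for Barx1 (0.79). The following 2 were Gpc1 (0.80) and Rxrb (0.80) for Msx1, Lama3 (0.82) and Dlx3 (0.81) for Msx2, Tcf7l2 (0.81) and Tgfbr3 (0.80) for Pax9, and Apc2 (0.76) and Akt2 (0.75) for Barx1. Tcf7l2 and Dvl2 were thus near Pax9 and Barx1 both with and without the stages, whereas the genes nearest to Msx1 and Msx2 were different ones. E18 replicate 3, a library that stood apart, held the highest E18 level of Barx1 (3362 normalized counts), Pax9 (2721), Dvl2 and Fbln1. E15 replicate 3, which also stood apart, held the highest E15 level of Pax9 (3828 normalized counts) and of Tcf7l2. The ranking was not repeated without either library, and the part of these libraries in the values was not tested. No member was among the genes most like another. Over all libraries r was -0.62 between Msx1 and Msx2, -0.61 between Msx2 and Pax9 and 0.28 between Msx1 and Pax9, and within stages it was 0.01, -0.26 and -0.43.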

How the data were processed

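RNA was measured in 15 single molar germs of rat embryos. The authors filtered the reads and deposited expected counts per gene, estimated with salmon and written as whole numbers, so that rounding changed no value. The processing notes of the E18 samples name FastQC 0.11.8, Trimmomatic 0.39 and Salmon 0.99.0 with build Rnor_6.0; the authors used unique Ensembl ortholog pairs to assign mouse categories to rat genes, but whether the mouse identifiers of this table were made that way, the transcript set and the use of strand are not given in the sources used here, so overlapping or antisense genes are uncertain. Notes of E15 and E17 name STAR and HTSeq, and the HTSeq table was not used here because its rat identifiers could not be matched to symbols. Gene symbols came from tables of the study, which pair 399 symbols with mouse identifiers; 356 of these identifiers occur in the count table.

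Stages were compared with edgeR 4.0.16 (R 4.3.3; TMM, filterByExpr, quasi-likelihood F test, Benjamini-Hochberg over all genes), fitting the 10 libraries of the stages compared. Standard errors were derived from the F statistic. Normalized counts used size factors of DESeq2 1.42.0 over all 15 libraries, and log2 CPM a prior count of 2. Ratios within a library used a pseudocount of 0.5 counts and exact permutation tests (scipy 1.17.1). Scripts were tested on simulated data. A count of 0 allows up to 3 counts, 0.109 to 0.273 CPM over the libraries; such limits and Poisson intervals cover counting error only. Replicate numbers follow accession order. The labels do not give litters, so p-values measure the spread between these germs. The members and lists were chosen with earlier results of these data known. One gene of the BMP list is not reported here and was left out of its counts. Genes were named by rule: all members with a row, the 2 largest rises and falls per list and comparison, genes whose role with a member is described, and for each member the 3 genes most like it. Alternatives were RLE scaling, other filters, DESeq2, all libraries in one fit, tooth side as covariate, both teeth of the shared embryo joined, and leaving out each library. Joining was not applied to the levels relative to the mesenchyme markers.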

Additional observations from a re-analysis of the deposited data

Results flagged for a closer look

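Of 42 groups of 5 libraries examined, 3 held a value that stood off from the remaining 4. By chance about 1 in 20 groups would, or 2.1 of 42. All 3 concern Pax9. E17 replicate 1 had 2879 normalized counts of Pax9, with the nearest library of its stage at 2191 and the lowest at 1933. The same library stood apart in Pax9 relative to the summed mesenchyme markers, at -5.91 on the log2 scale with the nearest at -6.84. In E15 replicate 3 the log2 ratio of Pax9 to Barx1 was 0.64, with the nearest library at 0.04. The germ of E17 replicate 1 is the left tooth of the embryo whose right tooth is replicate 2, and right minus left was -0.58 on the log2 scale for Pax9, -0.28 for Barx1, -0.31 for Msx2 and 0.50 for Msx1.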

How the results depend on the processing

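The called log2 fold changes of Msx1 and Msx2 kept their direction and their call under every alternative run, at -0.49 to -0.35 (Msx1, E17 against E15), -0.63 to -0.49 (Msx1, E18 against E15), 1.33 to 1.50 (Msx2, E18 against E17) and 1.77 to 2.26 (Msx2, E18 against E15). The counts of called genes were less stable. With all 15 libraries in one fit 1514 genes were called from E15 to E17 instead of 2315. From E17 to E18, instead of 323, DESeq2 called 636, joining both teeth of the shared embryo left 212, and leaving out 1 library gave 141 to 713, with 713 when E18 replicate 3 was left out, 442 for E18 replicate 1 and 141 to 208 for each other library. For the difference of the steps, instead of 71, joining gave 43 and leaving out 1 library 37 to 209, with 209 without E18 replicate 3 and 37 to 47 without an E17 library. Pax9 from E15 to E18 passed with DESeq2 (-0.51) and with all libraries in one fit (-0.50).

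Leaving out 1 library at a time gave the following log2 ranges. Pax9 was -0.44 to -0.20 from E15 to E17, called without E17 replicate 1, and -0.63 to -0.36 from E15 to E18, called without E18 replicate 3. Barx1 was -0.25 to -0.16 from E15 to E17, called without E15 replicate 3, and -0.10 to 0.050 from E15 to E18, so that its sign was not settled. The ratio Msx1/Msx2 from E15 to E17 was -1.43 to -0.82, with the call lost in 8 of 10 fits, and Pax9/Barx1 from E17 to E18 -0.43 to -0.28, with the call lost in 9 of 10; fewer libraries by construction raise the smallest p of these exact tests. Joining both teeth lost the same calls (-1.23 and -0.33). Msx1/Barx1 from E15 to E17 was -0.33 to -0.10 (called without E17 replicate 2), Msx2/Pax9 0.72 to 1.37 and Msx2/Barx1 0.56 to 1.20 (both called without E15 replicate 2), and Pax9/Barx1 -0.19 to 0.038. Msx1/Pax9 changed sign in each comparison, at -0.29 to 0.057, -0.12 to 0.15 and -0.26 to 0.087.

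Levels relative to the mesenchyme markers depended on how the markers were summed. Leaving out 1 library gave, with the sum of all markers, -0.42 to -0.27 for Msx1 from E17 to E18 (called without E17 replicate 5), -0.33 to 0.17 for Msx2 from E15 to E17, 0.90 to 1.39 for Msx2 from E15 to E18 (call lost in 3 of 10), -1.34 to -0.90 for Pax9 from E15 to E17 (lost in 7), -1.15 to -0.89 for Barx1 from E15 to E17 (lost in 6) and -0.077 to 0.14 for Barx1 from E17 to E18. With the mean log2 level in place of the sum, the difference from E15 to E17 was -0.40 for Msx1 (called), 0.77 for Msx2, -0.31 for Pax9 and -0.19 for Barx1, from E17 to E18 0.019 for Msx1 and 0.36 for Barx1 (called), and from E15 to E18 -0.38 for Msx1, -0.32 for Pax9 and 0.16 for Barx1. Without Col1a1 and Dcn in the sum, it was -0.21 for Msx1, 0.96 for Msx2, -0.11 for Pax9 and -0.0029 for Barx1 from E15 to E17, 0.16 for Msx1, 0.12 for Pax9 and 0.50 for Barx1 (called) from E17 to E18, and -0.052 for Msx1, 0.011 for Pax9 and 0.49 for Barx1 (called) from E15 to E18. No paired analysis was possible because the replicate numbers were given in order of accession, and the germs of different stages came from different embryos. The fold changes and ratios were not recomputed on HTSeq counts because rat identifiers could not be matched to symbols.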

Other observations

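Left and right germs were compared over all 15 libraries with the stage in the fit, a comparison added after the data were seen. None of 12894 genes was called in edgeR, and 117 had an unadjusted p under 0.05. By chance about 1 in 20 genes would have such a p, which is more than were found. Right minus left was 0.04 ± 0.11 for Msx1, -0.19 ± 0.25 for Msx2, -0.16 ± 0.14 for Pax9 and -0.02 ± 0.09 for Barx1 (log2 ± SE), with an edgeR adjusted p of 1.00 for each.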
